A study of Mus musculus with 3 samples.

Results

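The Ikaros, forkhead and Gata3 factor genes described here are Ikzf1, Ikzf2, Ikzf3, Foxo1, Foxo3, Foxp1 and Gata3, 7 of the 22350 protein-coding genes placed on the chromosomes analysed. They were chosen by name as lymphocyte transcription factors, by a rule that uses no measured value but was written with earlier results of these data known. Each gene was taken with its gene body plus 50 kb on either side, and the Runx3 peaks and H3K4me1 regions that shared at least 1 bp with this window were listed. The 7 windows held 51 of 15524 Runx3 peaks (0.329%) and 123 of 49902 H3K4me1 regions (0.246%).

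Natural killer (NK) cells were taken fresh from the spleens of ICR mice, an outbred strain, and their chromatin was immunoprecipitated and sequenced in the resting state (ChIP-seq). The series had 3 samples, 1 per group, and all 3 came from untreated cells of the same kind. The groups were a Runx3 IP with a polyclonal antibody made in the authors' laboratory, an H3K4me1 IP with a monoclonal antibody, and a control precipitation with non-immune rabbit serum (NIS). The labels give NKp46 as the sorting marker and the study's methods give DX5, so the exact gate of the cells is not settled. The study took NK cells from wild-type and Runx3-/- spleens, and its ChIP-seq methods do not name the genotype. No age of the mice was given in the sources used here. The deposited lists give coordinates without a score or a read number, so a peak is here present or absent, its strength is unknown, and replicates could not be compared.

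The labelled cell type was set beside marker genes. Each of the 5 NK markers (Ncr1, Klrb1c, Klrk1, Tbx21 and Eomes) had a Runx3 peak and an H3K4me1 region within 5 kb, where 39.8% of all protein-coding genes had such a peak and 67.7% such a region. Of 5 T cell markers, 1 had a peak and 3 had a region, and Cd8a and Cd8b1 had neither. Of 5 B cell markers 3 had a peak and 4 a region, and of 5 myeloid markers 1 had a peak and 4 a region. The share of other cells in the preparation cannot be read from lists of positions, and its part in the results was not tested.

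Ikaros (Ikzf1), Helios (Ikzf2) and Aiolos (Ikzf3) are zinc-finger proteins that bind DNA as dimers and bring the NuRD chromatin remodelling complex to their sites. Ikaros is required for lymphocyte development. The forkhead factors Foxo1 and Foxo3 are held out of the nucleus by phosphorylation through the PI3K-Akt pathway and drive genes of homing, survival and quiescence, and Foxp1 maintains quiescence of naive T cells. Gata3 specifies T helper and innate lymphoid lineages and is also used by NK cells. Runx3 is a Runt-domain factor of cytotoxic lymphocytes that binds the letters TGTGGT and variants of it, and H3K4me1, histone H3 monomethylated at lysine 4, marks enhancers and the flanks of active promoters.

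Each of the 7 members had at least 1 Runx3 peak and 1 H3K4me1 region, where 62.6% of all protein-coding genes had a peak and 79.7% a region in windows made the same way. Since the windows differ in length, counts were also taken per 100 kb. There were 3.24 Runx3 peaks per 100 kb of member window, against 0.588 per 100 kb of the 20 chromosomes with peaks. H3K4me1 regions had a density of 7.81 per 100 kb in the member windows and of 1.89 per 100 kb of the chromosomes. The chromosome values also cover sequence outside gene windows. Over the windows of all protein-coding genes the medians were 0.880 Runx3 peaks and 3.76 H3K4me1 regions per 100 kb. Of the 7 members, 4 had 5 or more Runx3 peaks, against 12.3% of protein-coding genes. That share is not adjusted for length: the member windows were 133 to 441 kb long, and the median window of protein-coding genes was 115 kb.

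The members ranged widely. The Runx3 density per 100 kb of window was 6.92 at Ikzf1 and 6.63 at Ikzf3, followed by 3.85 at Foxo1, 3.01 at Gata3, 2.27 at Foxp1, 1.54 at Foxo3 and 0.785 at Ikzf2. The median over all protein-coding genes was 0.880, so Ikzf2 lay below it and the other 6 members above it. With 1 list per antibody, it cannot be said which neighbours in this order differ beyond the error of a repeat experiment. The plot of density against H3K4me1 coverage shows Ikzf1 and Ikzf3 apart from the other 5 members on both axes.

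**Figure D1:**
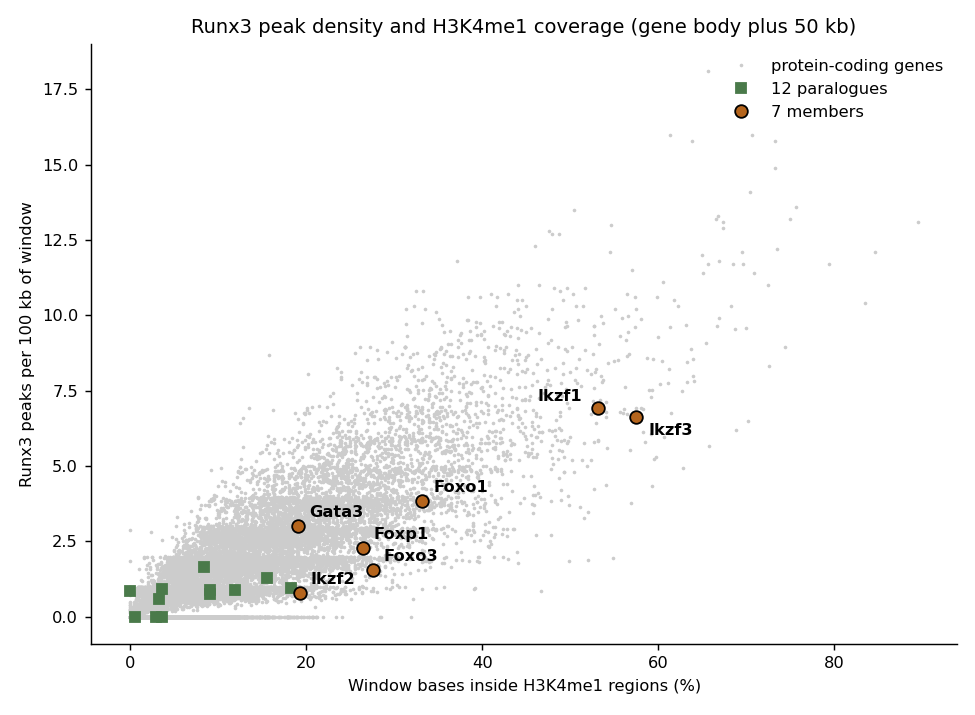
Each point is 1 protein-coding gene, with the percent of its window (gene body plus 50 kb on either side) inside H3K4me1 regions on the x axis and its Runx3 peaks per 100 kb of window on the y axis. Orange circles are the 7 members and green squares their 12 paralogues; Ikzf1 (53.2%, 6.92 peaks) and Ikzf3 (57.5%, 6.63 peaks) lie farthest to the upper right among the members, and no paralogue lies above 1.64 peaks per 100 kb.

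H3K4me1 followed the same split. It covered 53.2% of the Ikzf1 window and 57.5% of the Ikzf3 window. The other windows were covered to 33.2% (Foxo1), 27.6% (Foxo3), 26.4% (Foxp1), 19.3% (Ikzf2) and 19.1% (Gata3), and the median over all protein-coding genes was 7.49%. Within the gene bodies alone the mark covered 90.5% of Ikzf1, 89.0% of Ikzf3 and 70.6% of Gata3, but 29.7% of Foxp1 and 23.9% of Ikzf2. Counting the genes themselves, 114 of 22350 protein-coding genes had a window covered as far as that of Ikzf1 and 76 as far as that of Ikzf3.

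The number of Runx3 peaks for a given amount of H3K4me1 also differed between members. There were 15.7 peaks per 100 kb of H3K4me1 at Gata3, 13.0 at Ikzf1, 11.6 at Foxo1 and 11.5 at Ikzf3. The corresponding value was 8.59 at Foxp1, 5.58 at Foxo3 and 4.06 at Ikzf2. The whole list gave 11.6. The values of Ikzf2, Foxo3 and Foxp1 lay below it, those of Gata3 and Ikzf1 above it, and those of Foxo1 and Ikzf3 close to it. The values of Ikzf2, Foxo3 and Gata3 rest on only 2, 3 and 4 peaks, so their distance from the list value is uncertain.

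**Figure D2:**
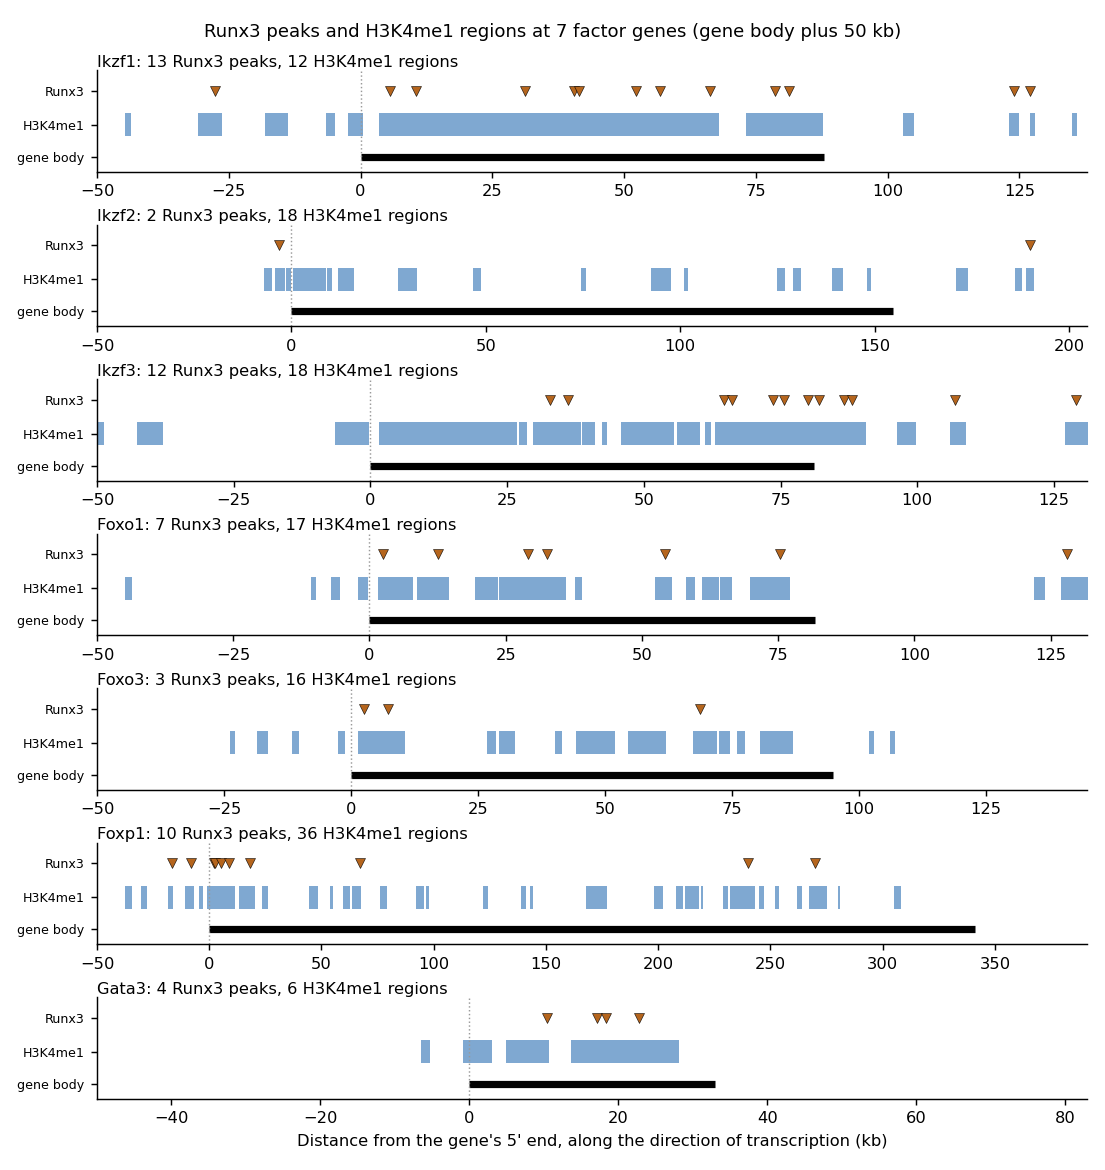
Each panel is 1 member with its gene body (black bar), H3K4me1 regions (blue blocks) and midpoints of Runx3 peaks (orange triangles) against the distance from the gene's 5′ end in kb, read in the direction of transcription. The 13 Ikzf1 peaks mostly lie above a single 64550 bp region, the 12 Ikzf3 peaks lie from 32.9 kb inside the gene to beyond its 3′ end, and the 2 Ikzf2 peaks lie outside the gene body.

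Ikzf1 (ENSMUSG00000018654.10, mm9 chr11:11585006-11672929, plus strand) encodes Ikaros, the founding member of its family. Its window held 13 Runx3 peaks, 10 of them with the midpoint in the gene body, 1 upstream and 2 downstream. Ikzf1 counted, 73 of 22350 protein-coding genes had as many peaks in their window. By peaks per 100 kb, which allows for its window of 188 kb, 450 genes had as high a density. Measured from the 5′ end of the gene, the peak midpoints lay at -27.6 kb, then at 5.53, 10.6, 31.2, 40.6, 41.5, 52.2, 56.9, 66.4, 78.6 and 81.3 kb inside the gene, and at 124 and 127 kb beyond it. The peaks inside the gene were spread over nearly its whole length and lay in introns.

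A single H3K4me1 region of 64550 bp (chr11:11588563-11653112) ran from 3.56 to 68.1 kb of the Ikzf1 gene and held 8 Runx3 peaks. Of the 49902 regions in the list, 6 were at least as wide and 11 held 8 or more peaks, this one counted in both. A second region of 14626 bp, from 73.2 to 87.8 kb, held 2 further peaks. The 5′ end itself lay in a separate region of 2796 bp (-2.37 to 0.426 kb), which held no Runx3 peak.

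The widest Ikzf1 peak, peak 2 (chr11:11590006-11591064, 1059 bp), was also the Ikzf1 peak nearest to a start of the gene, with its midpoint 0.200 kb from an internal transcript start in an intron. Of the 8 annotated Ikzf1 starts, 4 lay inside H3K4me1. The widest Ikzf1 peak over 5 kb from every start was peak 4 (chr11:11615649-11616704, 1056 bp). The central 200 bases of both are shown, with RUNX matches in capitals. A match was the word TGTGGT, the word TGTGGC, the word TGCGGT or the word TGCGGC, or the reverse complement of any of them. All sequences shown for the members are reference mm9, plus strand, 5′ to 3′, marked in this way, and present the kind of sequence that carried each member's peaks near and far from a start.
Ikzf1 peak 2, chr11:11590435-11590634: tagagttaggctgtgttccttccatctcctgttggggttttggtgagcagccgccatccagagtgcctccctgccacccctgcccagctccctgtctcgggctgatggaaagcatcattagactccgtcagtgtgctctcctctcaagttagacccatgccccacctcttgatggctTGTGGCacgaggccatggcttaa
Ikzf1 peak 4, chr11:11616077-11616276: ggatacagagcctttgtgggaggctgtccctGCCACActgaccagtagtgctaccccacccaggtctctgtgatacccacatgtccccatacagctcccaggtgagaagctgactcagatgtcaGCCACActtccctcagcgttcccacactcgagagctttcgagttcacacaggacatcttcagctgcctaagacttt

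Some Ikzf1 peaks lay near the start of another gene. Peak 3 (10.6 kb) was 0.830 kb from the start of Gm12000, a noncoding transcript inside Ikzf1. Peak 12 was 0.034 kb from the start of Fignl1, a gene beyond the 3′ end of Ikzf1 that encodes an AAA ATPase. Counting all annotated transcripts, 7 of the 13 peaks had a start of Ikzf1 as the nearest one, and 8 did among protein-coding genes. Which gene a peak acts on cannot be read from its position.

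Ikzf3 (ENSMUSG00000018168.8, chr11:98326216-98407345, minus strand) encodes Aiolos, which is expressed in maturing lymphocytes. Its window held 12 Runx3 peaks, a number reached by 115 protein-coding genes with Ikzf3 counted. Its density per 100 kb was reached by 556 protein-coding genes, again with Ikzf3 counted. The peaks lay at 32.9 and 36.1 kb from the 5′ end, at 64.6, 66.1, 73.6, 75.6, 80.1, 82.0, 86.7 and 88.1 kb, and at 107 and 129 kb. There was none upstream and none in the first 32 kb, and 5 had their midpoint beyond the 3′ end.

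At Ikzf3 8 peaks lay around the 3′ end of the gene in a single H3K4me1 region of 25189 bp (chr11:98319183-98344371, 63.0 to 88.2 kb from the 5′ end). In contrast, the second widest region of the window, 23247 bp from 1.52 to 24.8 kb in the first part of the gene, held 0 Runx3 peaks. The 2 regions are close in width and differ in peaks. Of the 49902 regions in the list, 86 were at least as wide as the wider of them. An Ikzf3 start was the nearest annotated start for 4 of the 12 peaks, and the nearest protein-coding start for 7. For peaks 8, 9 and 10 of the wider region the nearest protein-coding start was that of Grb7.

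The widest member peak of all 51 was Ikzf3 peak 8 (chr11:98324331-98326288, 1958 bp), which straddled the 3′ end and held 15 RUNX matches. In the whole list 34 of 15524 peaks held 15 or more. Ikzf3 peak 12, in an intron of the neighbouring receptor gene Erbb2, held 12 matches in 759 bp, a number reached by 67 peaks of the list. Both contain a run of 5 or more TG repeats, and 13 and 10 of their matches lay clear of such runs. Peak 11, at 107 kb, was 0.198 kb from a start of 1810046J19Rik and inside the noncoding Gm12352. The Ikzf3 peak nearest to an own start was peak 4 (2.52 kb away), whose central 200 bases had no RUNX match, although its central 300 bases had 2.
Ikzf3 peak 4, chr11:98341138-98341337: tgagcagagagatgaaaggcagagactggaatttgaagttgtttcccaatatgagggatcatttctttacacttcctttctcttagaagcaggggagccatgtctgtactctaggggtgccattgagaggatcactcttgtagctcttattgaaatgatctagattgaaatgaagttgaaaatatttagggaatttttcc
Ikzf3 peak 8, chr11:98325210-98325409: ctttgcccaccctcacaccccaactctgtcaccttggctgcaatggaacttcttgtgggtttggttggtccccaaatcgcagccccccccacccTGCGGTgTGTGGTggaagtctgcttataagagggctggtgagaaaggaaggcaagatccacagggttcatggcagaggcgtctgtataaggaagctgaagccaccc

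Ikzf2 (ENSMUSG00000025997.7, chr1:69577788-69732534, minus strand) encodes Helios and stood apart from its 2 relatives. Its window of 255 kb held 2 Runx3 peaks, a number reached by 44.1% of protein-coding genes, and neither lay in the gene body. Peak 1 (chr1:69735273-69735943, 671 bp) was 3.07 kb upstream of the single annotated start. Peak 2 (chr1:69542624-69543228, 605 bp) lay 190 kb from the 5′ end, beyond the 3′ end.

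H3K4me1 was nevertheless present along Ikzf2, in 18 regions, of which 16 held no Runx3 peak. The widest (chr1:69723542-69732154, 8613 bp) began 0.380 kb downstream of the 5′ end and held 0 peaks. Among the 7 members, Ikzf2 was the gene whose widest region had no Runx3 peak. Both Ikzf2 peaks had 3 RUNX matches, all within the central 300 bases, and both held 2 Ikaros matches (TGGGAA on either strand) there.
Ikzf2 peak 1, chr1:69735508-69735707: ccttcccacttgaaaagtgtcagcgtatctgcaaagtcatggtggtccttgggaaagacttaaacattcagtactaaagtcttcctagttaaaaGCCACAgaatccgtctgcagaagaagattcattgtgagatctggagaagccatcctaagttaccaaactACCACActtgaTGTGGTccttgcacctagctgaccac
Ikzf2 peak 2, chr1:69542826-69543025: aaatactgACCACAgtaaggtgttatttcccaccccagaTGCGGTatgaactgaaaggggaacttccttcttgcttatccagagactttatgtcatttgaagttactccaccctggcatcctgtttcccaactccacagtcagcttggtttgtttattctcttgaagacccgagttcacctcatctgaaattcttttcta

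Foxo1 (ENSMUSG00000044167.5, chr3:52072259-52154031, plus strand) controls homing receptors and survival of resting lymphocytes. Its window held 7 Runx3 peaks, 6 in the gene body, all 6 in introns, and 1 downstream. They lay at 2.5, 12.5, 29.1, 32.5, 54.3, 75.4 and 128 kb from the 5′ end, with none upstream. Each of the 7 was nearest, among all annotated starts, to that of RP24-337A16.1, a noncoding transcript that begins inside the gene, and each was nearest to Foxo1 among protein-coding starts.

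The Foxo1 peaks were spread over 6 H3K4me1 regions, of which the widest (chr3:52095936-52108332, 12397 bp) held 2. The widest Foxo1 peak was peak 7 (chr3:52199785-52200893, 1109 bp), in intergenic sequence beyond the 3′ end and inside a region of 7867 bp. It was also the widest Foxo1 peak over 5 kb from every start. Its central 200 bases held no RUNX match, whereas those of peak 1, the nearest to the start, held 1 and an Ikaros match.
Foxo1 peak 1, chr3:52074663-52074862: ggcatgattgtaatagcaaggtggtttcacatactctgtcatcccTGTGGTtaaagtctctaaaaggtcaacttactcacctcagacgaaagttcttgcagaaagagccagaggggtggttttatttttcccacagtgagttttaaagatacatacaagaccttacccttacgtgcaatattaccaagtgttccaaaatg
Foxo1 peak 7, chr3:52200239-52200438: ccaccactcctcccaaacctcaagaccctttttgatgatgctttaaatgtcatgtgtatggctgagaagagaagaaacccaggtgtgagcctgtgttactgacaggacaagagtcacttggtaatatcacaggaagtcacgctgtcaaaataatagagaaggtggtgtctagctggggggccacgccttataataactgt

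Foxo3 (ENSMUSG00000048756.4, chr10:41901647-41996561, minus strand) encodes the second Foxo factor of lymphocytes. It held 3 Runx3 peaks, all in introns, at 2.56, 7.24 and 68.6 kb from the 5′ end. The first 2 lay in the widest H3K4me1 region of the window (chr10:41985936-41995252, 9317 bp), and 14 of its 16 regions held none. Foxo3 peak 2 (chr10:41988840-41989806, 967 bp) was the widest and had 3 RUNX matches. Peak 1 had none in its whole length of 741 bp, which says only that these letters are not in this peak.
Foxo3 peak 1, chr10:41993901-41994100: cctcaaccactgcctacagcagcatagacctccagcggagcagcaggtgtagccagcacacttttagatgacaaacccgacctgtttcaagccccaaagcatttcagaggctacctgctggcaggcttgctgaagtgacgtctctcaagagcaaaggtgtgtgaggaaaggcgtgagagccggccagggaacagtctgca
Foxo3 peak 2, chr10:41989223-41989422: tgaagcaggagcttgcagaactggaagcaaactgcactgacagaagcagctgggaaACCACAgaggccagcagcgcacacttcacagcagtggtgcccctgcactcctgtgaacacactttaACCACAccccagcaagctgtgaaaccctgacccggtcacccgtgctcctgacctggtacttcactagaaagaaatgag

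Foxp1 (ENSMUSG00000030067.9, chr6:98875332-99216526, minus strand) is the longest of the 7 genes. Its window of 441 kb held 10 Runx3 peaks and 36 H3K4me1 regions, the highest number of regions among the members, at a density of 2.27 peaks per 100 kb. The peaks lay at -16.8 and -8.24 kb, then at 1.94, 2.70, 5.42, 8.66, 18.1 and 67.2 kb, and at 240 and 270 kb from the 5′ end. They gathered at the 5′ part of the gene, where 7 of the 10 lay within 20 kb of the 5′ end on either side.

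The widest Foxp1 region (chr6:99205045-99217528, 12484 bp) ran from -1.0 to 11.5 kb across the 5′ end and held 4 Runx3 peaks. Transcripts of Eif4e3, a translation factor gene, overlap this stretch, and 6 of the 10 peaks lay within an Eif4e3 transcript. All 10 peaks had a Foxp1 start as the nearest start. The widest Foxp1 peak, and the widest over 5 kb from every start, was peak 7 (chr6:99197918-99199030, 1113 bp). Peak 9 lay 1.84 kb from an internal Foxp1 start, the shortest such distance in the window.
Foxp1 peak 9, chr6:98976244-98976443: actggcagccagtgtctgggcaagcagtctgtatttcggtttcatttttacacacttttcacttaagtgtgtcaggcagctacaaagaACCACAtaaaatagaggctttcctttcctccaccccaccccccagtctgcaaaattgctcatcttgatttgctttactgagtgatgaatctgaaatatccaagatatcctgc
Foxp1 peak 7, chr6:99198374-99198573: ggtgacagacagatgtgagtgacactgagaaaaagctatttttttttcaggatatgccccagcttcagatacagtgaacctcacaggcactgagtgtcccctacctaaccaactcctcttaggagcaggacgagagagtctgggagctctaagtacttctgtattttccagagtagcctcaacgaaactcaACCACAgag

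Gata3 (ENSMUSG00000015619.9, chr2:9778705-9811661, minus strand) is the shortest of the 7 genes. Its 4 Runx3 peaks lay in introns at 10.4, 17.1, 18.3 and 22.8 kb from the 5′ end, and the 100 kb of flanking sequence held none. Peaks 2, 3 and 4 lay in the widest H3K4me1 region (chr2:9786787-9798092, 11306 bp, 13.6 to 24.9 kb), and peak 1 in the next widest. The region over the 5′ end, of 3950 bp, held no Runx3 peak, as at Ikzf1.

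Gata3 peak 2 (chr2:9794111-9794916, 806 bp) was 0.785 kb from an internal start, and peak 3 (chr2:9792578-9794086, 1509 bp) was the widest. These 2 peaks almost touch. Of the 6 annotated Gata3 starts, 5 lay inside H3K4me1. Peak 4 (chr2:9788527-9789291, 765 bp) was over 5 kb from every start.
Gata3 peak 2, chr2:9794414-9794613: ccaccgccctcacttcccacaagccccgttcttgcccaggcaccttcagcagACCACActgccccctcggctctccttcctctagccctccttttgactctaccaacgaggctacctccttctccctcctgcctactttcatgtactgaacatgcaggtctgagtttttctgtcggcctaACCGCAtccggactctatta
Gata3 peak 4, chr2:9788809-9789008: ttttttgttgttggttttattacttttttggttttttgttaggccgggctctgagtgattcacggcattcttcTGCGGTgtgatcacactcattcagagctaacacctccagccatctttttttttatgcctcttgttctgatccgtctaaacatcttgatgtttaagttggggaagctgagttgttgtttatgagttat

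Most member peaks lay away from annotated starts. A peak midpoint under 1 kb from a start of the gene itself was found at 2 of the 7 members, Ikzf1 and Gata3, both at internal starts, against 27.2% of protein-coding genes with such a peak, so this count is at the background. Of the 51 peaks, 5 (9.80%, exact 95% interval 3.26 to 21.4%) lay under 1 kb from any annotated start, against 39.1% of all Runx3 peaks. Another 14 (27.5%) lay at 1 to 5 kb, and 32 (62.7%, 48.1 to 75.9%) lay over 5 kb away, against 15.8% and 45.1% of all peaks. By location, 40 lay in introns, 4 in exons and 7 between genes. The intervals cover the counting error of these peaks alone, since peaks of 1 gene are not independent samples.

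The 5′ ends themselves fell into groups by H3K4me1. The 5′ ends of Ikzf1, Foxp1 and Gata3 lay inside a region, and 34.5% of protein-coding genes shared this. Those of Ikzf2, Ikzf3, Foxo1 and Foxo3 did not, but all 4 had H3K4me1 within 2.5 kb on both sides, an arrangement found at 16.3% of protein-coding genes. The distance to the mark on the upstream side was 0.209 kb at Ikzf2, 0.239 kb at Ikzf3, 0.229 kb at Foxo1 and 1.23 kb at Foxo3. On the downstream side it was 0.380, 1.52, 1.66 and 1.31 kb, in the same order of genes.

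All 51 member peaks overlapped H3K4me1 (100%, exact 95% interval 93.0 to 100%), against 95.7% of the whole list, so the overlap alone is near the background. The midpoint lay inside a region for all 51, against 83.6% of all peaks, and the entire peak did for 48 (94.1%, 83.8 to 98.8%) against 68.4%. Much of this went with the distance from starts. Among peaks at least 1 kb from any start, the midpoint was inside a region for 46 of 46 member peaks and for 94.8% of 9452 peaks in the list, and the whole peak for 95.7% and 91.7%.

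The reverse overlap was lower. Of the 123 member regions, 30 (24.4%) held a Runx3 peak, against 28.6% of all regions, and 8 held 2 or more. The median width was 4890 bp for member regions with a peak and 2016 bp for member regions without one. Over the whole list the medians were 2646 and 1614 bp, so regions with a peak were the wider ones in both sets. The room that a wider region gives for a peak was not separated from this difference.

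**Figure D3:**
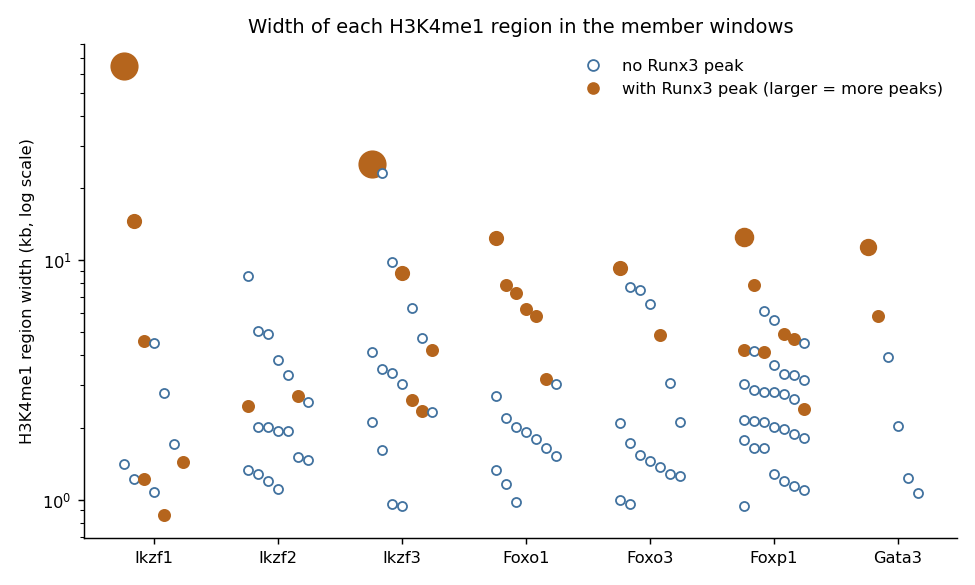
Each circle is 1 H3K4me1 region in the window of the member named on the x axis, with its width in kb on a log y axis; filled circles hold Runx3 peaks (larger circles hold more) and open circles hold none. Sideways offsets only separate the circles. The 64550 bp region of Ikzf1 and the 25189 bp region of Ikzf3, each with 8 peaks, stand highest, and the 23247 bp region of Ikzf3 without a peak is beside the latter.

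RUNX letters were present in nearly all member peaks. A match lay in 49 of 51 (96.1%, 86.5 to 99.5%), against 93.3% of all peaks, and the exceptions were Ikzf1 peak 13 and Foxo3 peak 1. In the central 300 bases, which make peaks of different width comparable, 44 (86.3%, 73.7 to 94.3%) had one, against 79.4%. Both shares were near the background. The member peaks carried 156 matches, or 3.51 per kb, against 3.19 per kb in the whole list.

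The variants were unevenly used. TGTGGT lay in the central 300 bases of 37 member peaks (72.5%, 58.3 to 84.1%) and of 48.7% of all peaks. The variant TGTGGC was found in 27.5% of member peaks and 31.3% of the list. For TGCGGT the shares were 15.7% and 16.0%, and for TGCGGC they were 7.84% (2.18 to 18.9%) and 14.7%. The difference for TGTGGT was smaller away from starts, with 73.9% (58.9 to 85.7%) of the 46 member peaks at least 1 kb from any start against 62.7% of such peaks in the list. The interval then included the value of the list. The median GC content was 47.4% in member peaks and 50.7% in all peaks.

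The members are themselves DNA-binding factors, so the letters of their own families were searched on both strands of the same central 300 bases. The Ikaros letters TGGGAA were found in 14 peaks (27.5%, 15.9 to 41.7%), against 20.4% of all peaks. They lay in 5 of the 13 Ikzf1 peaks, in both Ikzf2 peaks and in 1 of the 12 Ikzf3 peaks. The GATA letters AGATAA or AGATAG were found in 12 (23.5%, 12.8 to 37.5%) against 18.4%, and the forkhead letters TGTTTAC in 2 (3.92%, 0.478 to 13.5%) against 3.72%. Each interval included the value of the whole list. Among the genes' own peaks, 1 of 4 at Gata3 held the GATA letters and 1 of 20 at the forkhead genes the forkhead letters. None of the searched words contains another, though matches of different families can share bases where they abut.

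**Figure D4:**
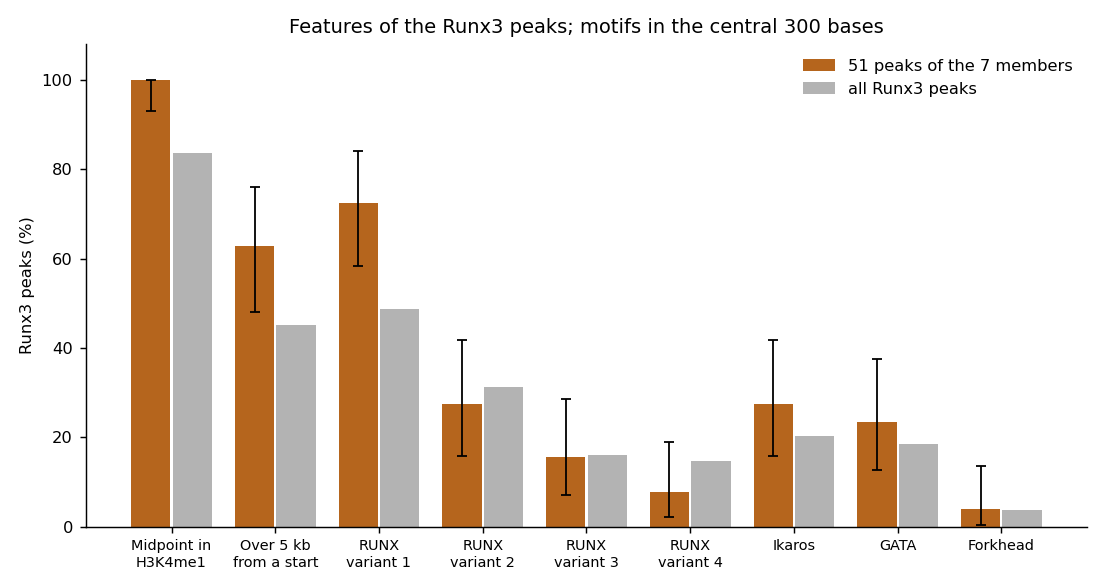
Bars give the percent of the 51 member peaks (orange, with exact 95% intervals) and of all 15524 Runx3 peaks (grey) that have each feature on the x axis; RUNX variant 1 is the word TGTGGT, variant 2 the word TGTGGC, variant 3 the word TGCGGT and variant 4 the word TGCGGC, and all motifs were searched in the central 300 bases. The grey value lies below the member interval for the midpoint in H3K4me1 (100% against 83.6%), the distance over 5 kb (62.7% against 45.1%) and TGTGGT (72.5% against 48.7%). The intervals cover counting error alone, since peaks of 1 gene are not independent samples. For peaks at least 1 kb from any start, the midpoint shares were 100% and 94.8%, and the TGTGGT shares 73.9% and 62.7%. Both list values then lay inside the member intervals.

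The paralogues of the members, many of which act mainly outside lymphocytes, had windows with densities near those of all genes. Of 12 paralogues, 9 had a Runx3 peak and 0 had 5 or more, against 62.6% and 12.3% of all protein-coding genes, with a median of 0.853 peaks per 100 kb and 6.0% of the window in H3K4me1. The members had medians of 3.01 peaks per 100 kb and 27.6%, and all protein-coding genes 0.880 and 7.49%. Ikzf5 and Foxp4 had 2 peaks each, 7 others 1 each, and Foxo6, Foxp2 and Gata2 had 0. Foxp3, the factor of regulatory T cells, had 1 peak and 7 H3K4me1 regions, and Gata1, the erythroid factor, had 1 peak and 0 regions.

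The genes of kinases and of a regulatory subunit in the PI3K-Akt pathway that acts on Foxo had peaks throughout. Of these genes, 6 of 6 had at least 1 and 5 had 5 or more, against 62.6% and 12.3% of all protein-coding genes. Their median was 3.79 peaks per 100 kb, against 0.880 over all genes. The windows of these 6 genes were 121 to 218 kb long, and the median window of all genes was 115 kb. Pik3r1, the regulatory subunit of PI3K, had 9, Sgk1, a kinase of Foxo, had 8, and Pik3cd and Akt2 had 6 each. Pdpk1, the kinase that activates Akt, had 5 and Akt1 had 4.

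Of 7 known Foxo1 targets, 7 had a peak and 4 had 5 or more, where the shares over all protein-coding genes were 62.6% and 12.3%. Their median was 5.86 peaks per 100 kb, against 3.01 for the members and 0.880 for all genes. Klf2, a factor of quiescence and egress, and Bcl2l11, the death inducer Bim, had 8 each. S1pr1 and Ccr7, receptors for egress and lymph node entry, had 7 each. Il7r, the receptor for interleukin 7, had 1 peak in a window of 124 kb.

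Among 12 partners of Ikaros, mostly subunits of NuRD and Sin3 complexes, 11 had a peak and 4 had 5 or more (62.6% and 12.3% of all protein-coding genes), with a median of 2.66 per 100 kb. Mta2 and Gatad2a had 11 peaks each, whereas Hdac2 and Gatad2b had 1 each and Rbbp7 had 0. The 10 partners and targets of Gata3 all had a peak, 4 had 5 or more, against the same shares of all genes, and the median was 2.43 per 100 kb against 0.880. Il1rl1, the receptor for interleukin 33, had 15, Tcf7, a factor of early lymphocytes, had 11 and Zfpm1, a GATA cofactor, had 9. The cytokine genes Il4 and Il5 had 2 each and Il13 1, and their windows overlap with one another and with that of Rad50, so their peaks are partly shared. The lists were chosen by function and are described by their counts alone.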

How the data were processed

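The labels and the methods section give the upstream steps. The authors fixed cells in formaldehyde, aligned reads to mm9 with ELAND (CASAVA 1.7 in the submitters' processing notes) and kept those with a unique position. By the methods section, reads of repeat experiments were pooled, data sets were brought to equal size, and MACS called enrichment over the NIS control. The labels, however, describe each sample as the first experiment. The deposited Runx3 list has 15524 peaks, the same number that the study reports for resting NK cells from its calls on pooled reads. For the H3K4me1 list, whether pooled reads were used cannot be read from it. The deposited lists hold positions and running names only. Read numbers and depth cannot be read from them, which affects detection: a weak site may be absent from either list.

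The 0-based starts of the lists were converted to 1-based mm9 coordinates and joined to the GENCODE annotation of that build (NCBIM37). Promoter tables of another build were not used. Overlap meant at least 1 bp. Starts were those of all annotated transcripts, and distances were taken from peak midpoints. Motifs were searched by exact letters on both strands. Counting was tested on simulated intervals. Python 3.11.15, pysam 0.24.0, SciPy 1.17.1 (exact Clopper-Pearson intervals at 95%), NumPy 2.4.6 and Matplotlib 3.10.9 were used. With 1 list per antibody no test was made, and all comparisons are descriptions beside the same count over all genes or peaks.

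The members and lists were chosen with earlier results of these data known, and some genes of the lists are not reported here. Peaks named with coordinates were those under 1 kb from an own start, the widest of each window, the widest over 5 kb from every start and the widest H3K4me1 region. Sequences came from the peak nearest to an own start and the widest one over 5 kb from every start, up to 200 bases around the midpoint without UTR exons. Neighbouring genes were named where one of the 51 peaks lay under 1 kb from their start. Ikzf1 peak 13, Ikzf3 peaks 9, 10 and 12, Eif4e3 and Grb7 were named after their values were seen.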

Additional observations from a re-analysis of the deposited data

How the results depend on the processing

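For 5 results 23 alternatives were computed, including 2 that were added once the data had been seen, and 19 stayed within the range set for no change. The number of Runx3 peaks in the member windows (51) fell to 25 when rows narrower than the list's median width were dropped and to 30 when the nearest annotated start had to belong to the member. With the nearest protein-coding start (an alternative added after the data were seen) it was 41, with 7 peaks instead of 0 at Foxo1, 7 instead of 4 at Ikzf3 and 8 instead of 7 at Ikzf1. The other windows and rules gave 39 to 60 peaks, and 82 to 151 H3K4me1 regions in place of 123. The share of member peaks overlapping H3K4me1 was 96.1% when H3K4me1 regions narrower than the median were dropped and 100% under the other alternatives. A RUNX match was found in 86.3% of peaks when the search was kept to 300 bases around the midpoint instead of the whole peak (96.1%), as a shorter stretch holds fewer words, and in 96.1% when matches in or beside TG repeats were left out, also added after the data were seen. H3K4me1 covered 46.5% of the gene bodies and 32.3% of the windows. Under the 3 alternative flank lengths Ikzf1 had the most Runx3 peaks or shared that place with Ikzf3. Ikzf3 led among the wider rows (8 against 7 at Ikzf1), and Foxp1 led by nearest start (10 against 7) and by nearest protein-coding start (10 against 8). The lists limit these results to presence or absence: since they hold no scores or read numbers, and there is 1 list per antibody, no error of a repeat experiment could be given.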
